A study of Homo sapiens with 9 samples.

Results

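NOS1 and KSR2 lie side by side on chromosome 12, and Hi-C, a method that ligates DNA fragments lying close together in the nucleus and sequences the joined ends, was used here to follow how the chromatin that holds them was folded in growing and in senescent IMR90 human lung fibroblasts. The 2 genes, out of 19932 protein-coding genes with a measured window, were taken because they lie in a domain selected on its contacts, as given below. In hg19 NOS1 lies at chr12:117645947-117889975 and KSR2 at chr12:117890817-118406795, both on the minus strand and 0.841 kb apart. Their domain was taken as 17 bins of 40 kb, chr12:117640001-118320000, called the core below, within a region of 76 bins reaching from 116.5 to 119.5 Mb. Genome-wide, 69621 bins were measured in all libraries. The domain was selected on its Hi-C contacts in growing and RIS cells from these same libraries, so the differences between conditions inside the region are given as a description, and where a fit over the whole genome is counted inside the core, nothing is read from the count.

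All cells carried ER:HRAS(G12V), an oncogenic HRAS fused to the oestrogen receptor that is switched on by 4-hydroxytamoxifen (4OHT), and were at passage 20 to 25. Growing cells had received no tamoxifen (3 libraries, of which replicate 3 also carried an MSCV vector by its label). Cells in RAS-induced senescence (RIS) had been given 100 nM 4OHT for 6 days (2 libraries). The study calls the replicates biological, and the labels do not say whether they came from separate cultures, so p-values measure the spread between these libraries.

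NOS1 encodes neuronal nitric oxide synthase, which makes nitric oxide from arginine, and KSR2 encodes kinase suppressor of RAS 2, a scaffold that holds RAF, MEK and ERK together downstream of RAS. Both genes are best known from the nervous system and not from fibroblasts, although the KSR proteins belong to the same signalling route that the oncogene switches on here. Interphase chromosomes fold into topologically associating domains (TADs), stretches that contact themselves more than their neighbours and whose edges are often marked by the DNA-binding protein CTCF. On a larger scale active chromatin (A compartment) and silent chromatin (B compartment) each tend to contact their own kind.

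The matches to the CTCF motif in and nearest to the core are shown because the contacts described below peak between the edge bins of the core, of which the left holds a match and the right does not. The 12-base core of the CTCF motif was searched on both strands of GRCh37, the build of the deposited bins, and is printed in capitals with 8 bases on either side, read 5′ to 3′ on the strand of the match.
Within the left edge bin of the core, in an intron of NOS1, chr12:117674455-117674482, plus strand: agccggggCCAGCAGGGGGCgctgtggg
Nearest match to the left of the core, in an exon of the non-coding TESC-AS1, chr12:117538268-117538295, plus strand: tgagatgtCCACCAGAGGGCctggcgtg
Nearest match to the right of the core, in an intron of WSB2, chr12:118493063-118493090, minus strand: gcctccacCCACTAGATGGCagtagtag
The core held no other match, so 1 of its 17 bins had the motif, against 10 of 76 bins of the region and 13.3% of all bins. A match shows that these letters are present and not that CTCF was bound, which was not measured in these files. Only exact matches to this pattern were counted, so a bin without a match, the right edge bin included, is not shown to lack a CTCF site. At 45.8% GC the core was richer in G and C than the average bin at 40.8%, and it had 9.82 HindIII sites per bin against 11.8, HindIII being the enzyme that cut the DNA.

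Contacts were expressed as observed over expected, the balanced contact of 2 bins divided by the mean of all bins at the same distance in that library, on the log2 scale, so that 0 is the average for the distance. Over the 136 pairs of different bins in the core, the log2 mean observed/expected contact was 0.44, 0.41 and 0.52 in growing replicates 1, 2 and 3. In RIS replicates 1 and 2 it was 0.93 and 0.92, and libraries are listed in this order throughout. The core thus contacted itself more than the average stretch in growing cells already, and both RIS libraries lay above all growing libraries. The growing mean was 0.46 ± 0.05 (SD, n = 3) and the RIS mean 0.93 ± 0.01 (SD, n = 2), a difference of 0.47 or 1.39-fold. For comparison, over all 63605 windows of 680 kb the median level in growing cells was -0.05, with 90% of windows between -0.58 and 0.49, and the median difference between the conditions was 0.01, with 90% of windows between -0.30 and 0.17. Both RIS libraries were above all growing libraries in 37.2% of these windows. The values of the core rested on 5512, 5606 and 6330 recovered whole contacts (growing) and on 5132 and 7445 (RIS).

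**Figure D1:**
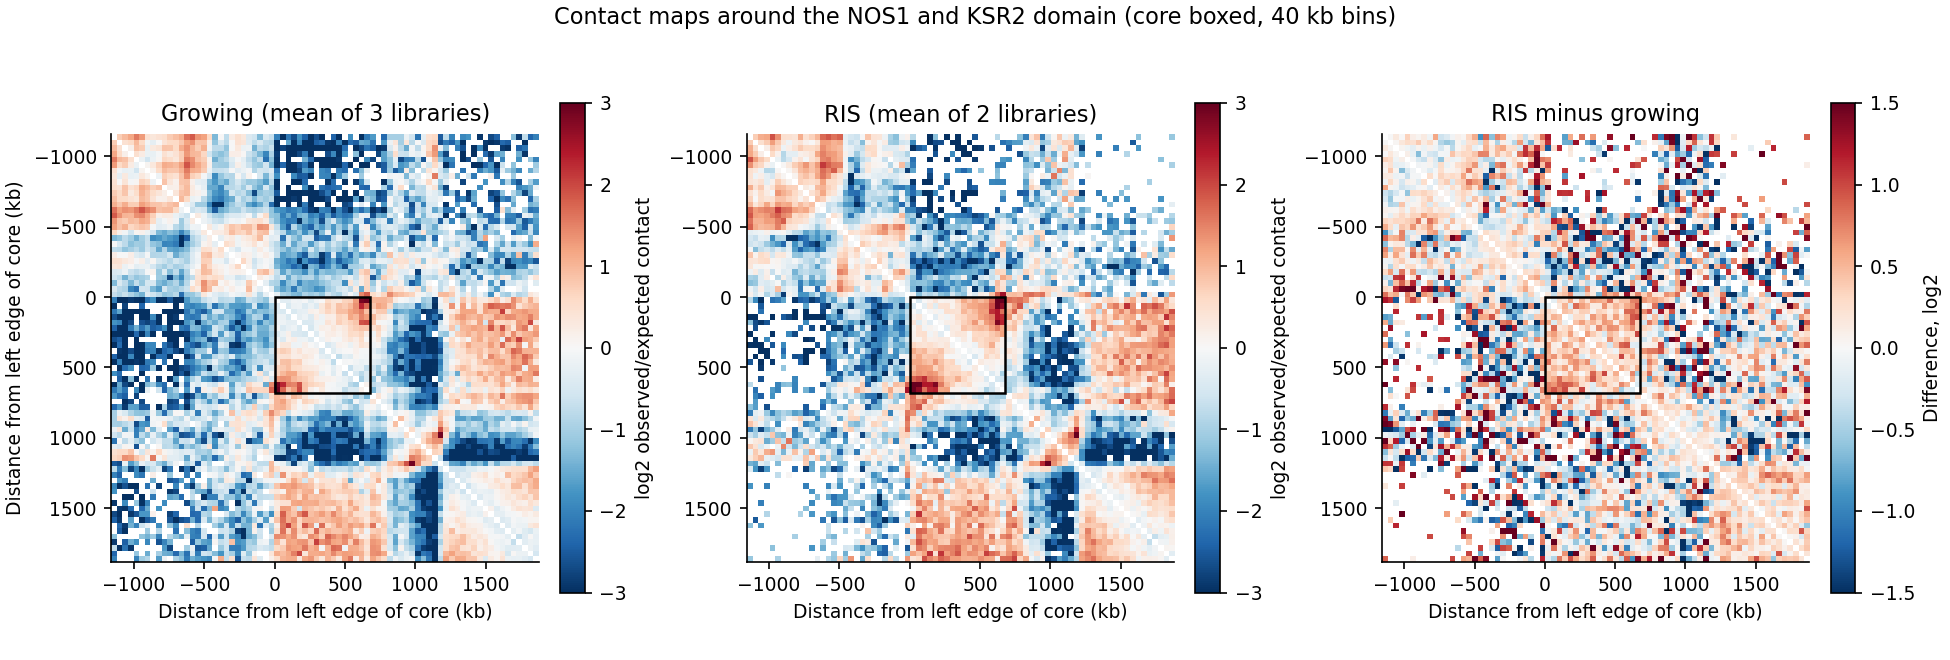
Contact maps of the region in growing cells, in RIS cells and their difference. Both axes give the distance from the left edge of the core in kb, colour gives log2 observed/expected contact of 40 kb bins (or its difference), pairs without contacts and the diagonal are white, and the box marks the core, whose far corner has the highest contact inside it in both conditions and whose inside is mostly red in the difference, where 122 of 136 pairs are higher.

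Contact inside each gene was close to the average for its distance in both conditions. The 6 bins that hold NOS1 and not KSR2 gave a log2 observed/expected contact of -0.23, -0.29 and -0.26 with each other (growing) against 0.01 and 0.03 (RIS). The growing libraries were all below the RIS libraries, by 0.28 on average (1.22-fold). The 13 bins that hold KSR2 and not NOS1 gave -0.20, -0.25 and -0.19 (growing) against 0.02 and 0.07 (RIS). The difference was 0.26 (1.2-fold), again without overlap of the libraries. By the contact within the gene body, both RIS libraries were above all growing libraries in 44.2% of 1435 genes of at least 200 kb, so nothing is read from the lack of overlap. On recovered contacts, before balancing, the differences were 0.51 for NOS1 and 0.45 for KSR2. Both genes thus lay slightly below the genome's average for the distance in growing cells and close to it in RIS cells. For KSR2 this value spans the right edge of the core. Its bins inside the core contacted each other at means of -0.09 (growing) and 0.19 (RIS). With its bins beyond the core they stood at -0.45 (growing) and -0.24 (RIS).

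Relative to the average for the distance, contact between NOS1 and KSR2 was higher than that within either gene. Over 78 pairs of bins it was 0.86, 0.85 and 0.96 (growing) against 1.40 and 1.45 (RIS). Its mean was higher by 0.53 in RIS cells (1.45-fold), with an SD of 0.06 among growing and 0.04 among RIS libraries. Among libraries with few duplicate reads, RIS replicate 1 against growing replicates 1 and 2, the difference was 0.54. Among those with many, RIS replicate 2 against growing replicate 3, which also carried the MSCV vector, it was 0.48. The latter compares 1 library with 1 and has no spread, here and below. The part of KSR2 inside the core (10 bins) contributed most, at a mean difference of 0.56 with NOS1, and the 3 bins of KSR2 beyond the core, which hold its 5′ end, differed by 0.40. These 3 bins were also in contact with NOS1 in growing cells, at 0.62, 0.75 and 0.75, and reached 0.99 and 1.23 in RIS cells. In recovered contacts the 78 pairs between the genes held 1769, 1814 and 2066 (growing), fewer than the 3056, 3100 and 3464 of the 78 pairs within KSR2. The core split at its middle bin, without regard to the genes, gave a like pattern. Its left and right parts contacted each other at means of 0.94 (growing) and 1.49 (RIS). Within the left part the means were -0.22 and 0.11, and within the right part -0.23 and 0.05.

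Pooled into 4 classes of distance, the difference between RIS and growing cells was larger for pairs of bins farther apart. Pairs 40 to 160 kb apart differed by 0.28, pairs 200 to 320 kb apart by 0.36, pairs 360 to 480 kb apart by 0.53 and pairs 520 to 640 kb apart by 0.74. Single distances did not follow this order throughout, with differences of 0.24 at 40 kb, 0.46 at 200 kb and 0.21 at 320 kb. The farthest pair joined the left edge bin, which covers the 3′ end of NOS1 and the CTCF motif match, with the right edge bin inside KSR2. It stood at 3.06, 2.88 and 2.90 (growing) against 3.81 and 3.61 (RIS). This made it the pair with the highest contact over its expectation in the core in both conditions, and it was 1.70-fold higher in RIS cells. It was read from 86, 84 and 89 recovered contacts in growing and from 102 and 118 in RIS cells, although the RIS libraries held fewer contacts in all.

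**Figure D2:**
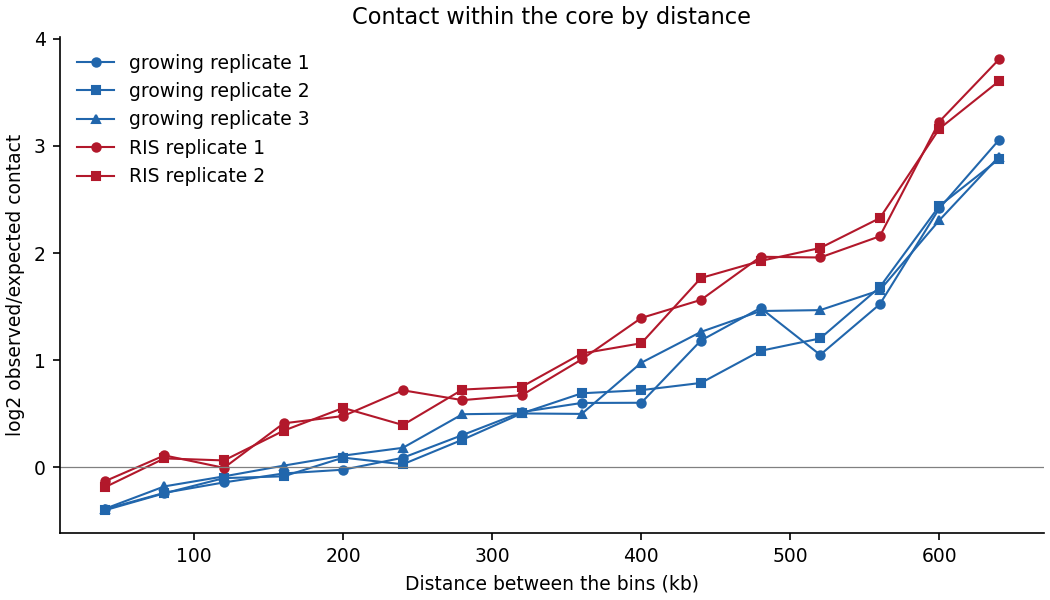
Log2 observed/expected contact inside the core against the distance between the bins in kb, with a line for each library. Growing libraries (blue) and RIS libraries (red) rise with distance to between 2.88 and 3.81 at 640 kb, and the red lines lie above the blue ones in all 4 classes of distance named in the text.

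Seen bin by bin, the mean contact with the rest of the core was highest at the ends and lowest in the middle. The left edge bin stood at 0.99 in growing and 1.58 in RIS cells. The bin 80 to 40 kb before the right edge, inside KSR2, stood at 1.07 and 1.71, the highest of all. Bins around the gap between the genes were close to 0 in growing cells, with 0.08 in the bin that both genes share and 0.05 in the next bin of KSR2, and reached 0.46 and 0.35 in RIS cells. Differences ranged from 0.30 to 0.64 over the 17 bins. The bin with the start of the main NOS1 transcript contacted the rest of the core at 0.47, 0.32 and 0.55 (growing) against 0.99 and 0.97 (RIS). For the bin with the start of KSR2, which lies outside the core, contact with the core was -0.06, 0.12 and -0.10 (growing) against 0.23 and 0.45 (RIS). The contact between the 2 start bins rested on 12 to 22 recovered contacts and overlapped between the conditions.

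Of the 136 single pairs of the core, 122 were higher in the RIS mean and 14 were lower. Both RIS libraries were above all growing libraries in 76 pairs (55.9%), against 14.3% of all pairs of the genome at these distances, and below them in 2 pairs, against 18.6% of all pairs. With limma on log2 balanced values, with Benjamini-Hochberg adjustment at 5% over 2087248 pairs up to 2 Mb apart, 0 of the 136 pairs were called, against 0.0106% of all pairs called higher in RIS cells and 0.0577% called in either direction. At an unadjusted p under 0.05, 27 pairs of the core were higher and 0 lower, against 4.60% of all pairs higher. With limma voom on the recovered whole contacts 34 pairs of the core were called, all higher in RIS cells, against 0.789% of all pairs. As the domain was selected on this contrast, nothing is read from these counts.

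Contacts of the core with the adjacent stretches were below the average for their distance in both conditions. The stretch of equal length to the left holds MAP1LC3B2, SPRING1, RNFT2, HRK, FBXW8, TESC and FBXO21, and its contact with the core was -1.31, -1.14 and -0.87 (growing) against -1.09 and -1.19 (RIS). The stretch to the right holds the start of KSR2, RFC5, WSB2, VSIG10, PEBP1, TAOK3 and SUDS3, and its contact with the core was -0.52, -0.56 and -0.62 (growing) against -0.56 and -0.51 (RIS). Both sets of values overlapped between the conditions, with mean differences of -0.04 and 0.03. The difference with the left stretch was 0.13 among libraries with few duplicates and -0.32 among those with many. In growing replicate 3 the contact with the left stretch was higher than in any other library. NOS1 taken alone had less contact in RIS cells with the part of the right stretch beyond KSR2. It was -0.52 and -0.53 in the RIS libraries against -0.25, -0.32 and -0.49 in the growing libraries. The difference was -0.24 among libraries with few duplicates and -0.03 among those with many. Contact of NOS1 with the 3 bins of KSR2 in that stretch was higher in RIS cells, as given above, so these values do not describe the whole stretch. The bin just outside the left edge, which holds most of FBXO21, an F-box protein of ubiquitin ligases, lay higher in RIS cells: its contact with the core was -0.23, -0.21 and -0.12 (growing) against 0.29 and 0.25 (RIS).

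**Figure D3:**
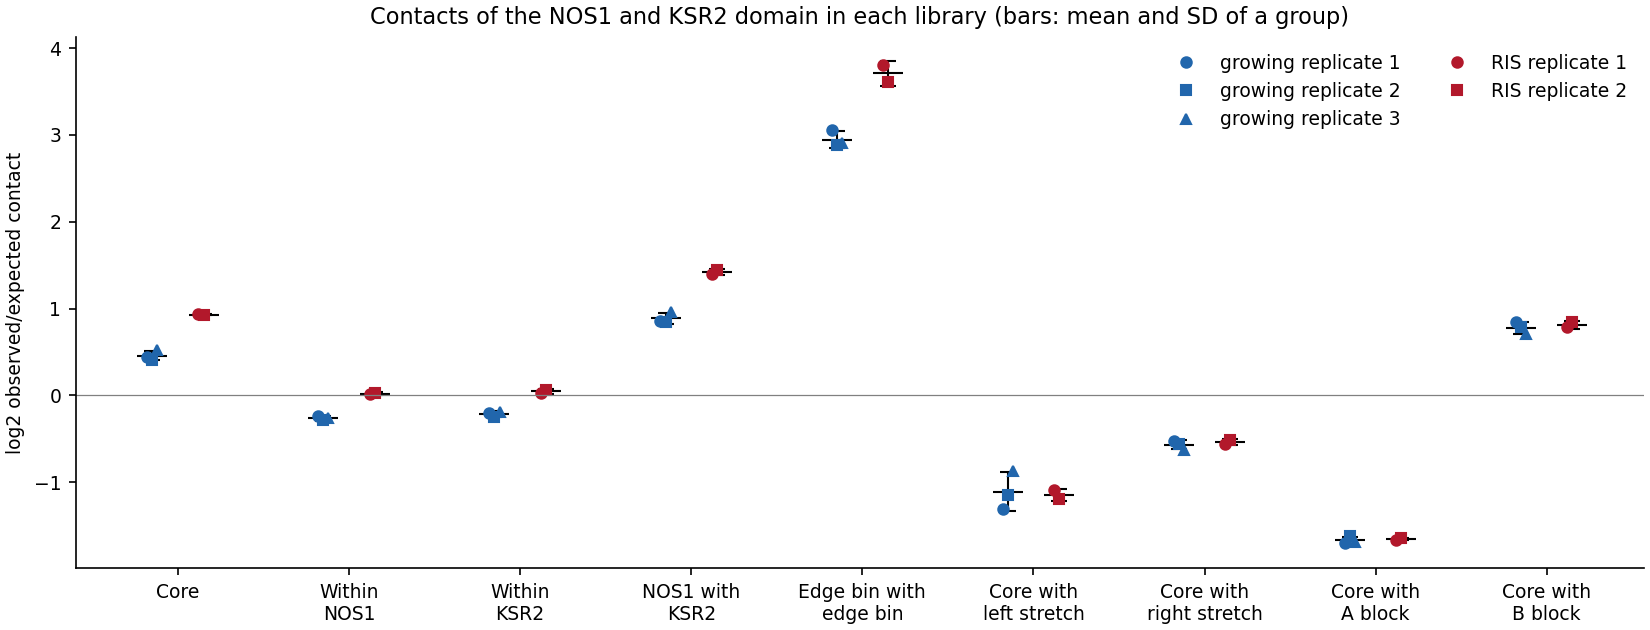
Log2 observed/expected contact of the sets of bin pairs named in the text, with a point for each growing (blue) and RIS (red) library and bars for the mean and SD of a group. The libraries of the conditions separate for the core, for each gene, for NOS1 with KSR2 and for the pair of edge bins, and overlap for the contacts of the core with its neighbours.

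Farther to the right the map was divided by compartment, and blocks were drawn after the values were seen, by the sign of the compartment score in growing cells. From 118.44 to 118.8 Mb the chromatin around RFC5, WSB2, VSIG10, PEBP1 and TAOK3 was in the A compartment, and from 118.8 Mb to the end of the region, where SUDS3 and SRRM4 lie, it was in the B compartment in growing cells. The core skipped the A block, with which its contact was -1.70, -1.62 and -1.68 (growing) against -1.66 and -1.64 (RIS). With the B block beyond it, which is farther away, its contact was 0.85, 0.79 and 0.71 (growing) against 0.78 and 0.85 (RIS). Neither value differed beyond the spread of the libraries, with mean differences of 0.02 and 0.03. Contact of the B block with itself was 0.13, 0.08 and 0.11 (growing) against 0.40 and 0.39 (RIS), so that this block too was higher in the RIS libraries, by 0.28.

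The insulation score, the mean contact across a position within 520 kb to either side on the log2 scale, falls to a minimum where a domain ends. At the left edge of the core, next to the 3′ end of NOS1, it was -1.31, -1.23 and -0.97 (growing) against -1.28 and -1.28 (RIS). This was a deep minimum in all 5 libraries, with a prominence between 1.39 and 2.10, and the conditions overlapped. At the right edge, inside KSR2, the score was -1.07, -1.14 and -1.03 (growing) against -1.07 and -0.88 (RIS), also with overlap. Here the minimum had a prominence between 0.108 and 0.168 in 4 libraries and of 1.79 in RIS replicate 1. In those 4 libraries the minimum with the larger prominence, between 1.17 and 1.65, lay 80 or 120 kb farther right, at the 5′ end of KSR2. The 2 minima were close in depth, at -1.07 and -1.12 in growing replicate 1 and at -1.07 and -0.99 in RIS replicate 1. The larger prominence goes to the lower of the 2, so it does not show that the domain ended elsewhere in RIS replicate 1. By this measure the right end of the domain was not settled, and the core as defined leaves out the 3 bins at the 5′ end of KSR2. Inside the core the mean score was higher in RIS cells at all 16 positions, by 0.01 next to the left edge and by up to 0.40 within KSR2. The libraries overlapped at the positions next to the left and the right edge. Outside the core the mean score was also higher in RIS cells at many positions, such as by 0.25 at chr12:119000000 and by 0.19 at chr12:117000000.

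**Figure D4:**
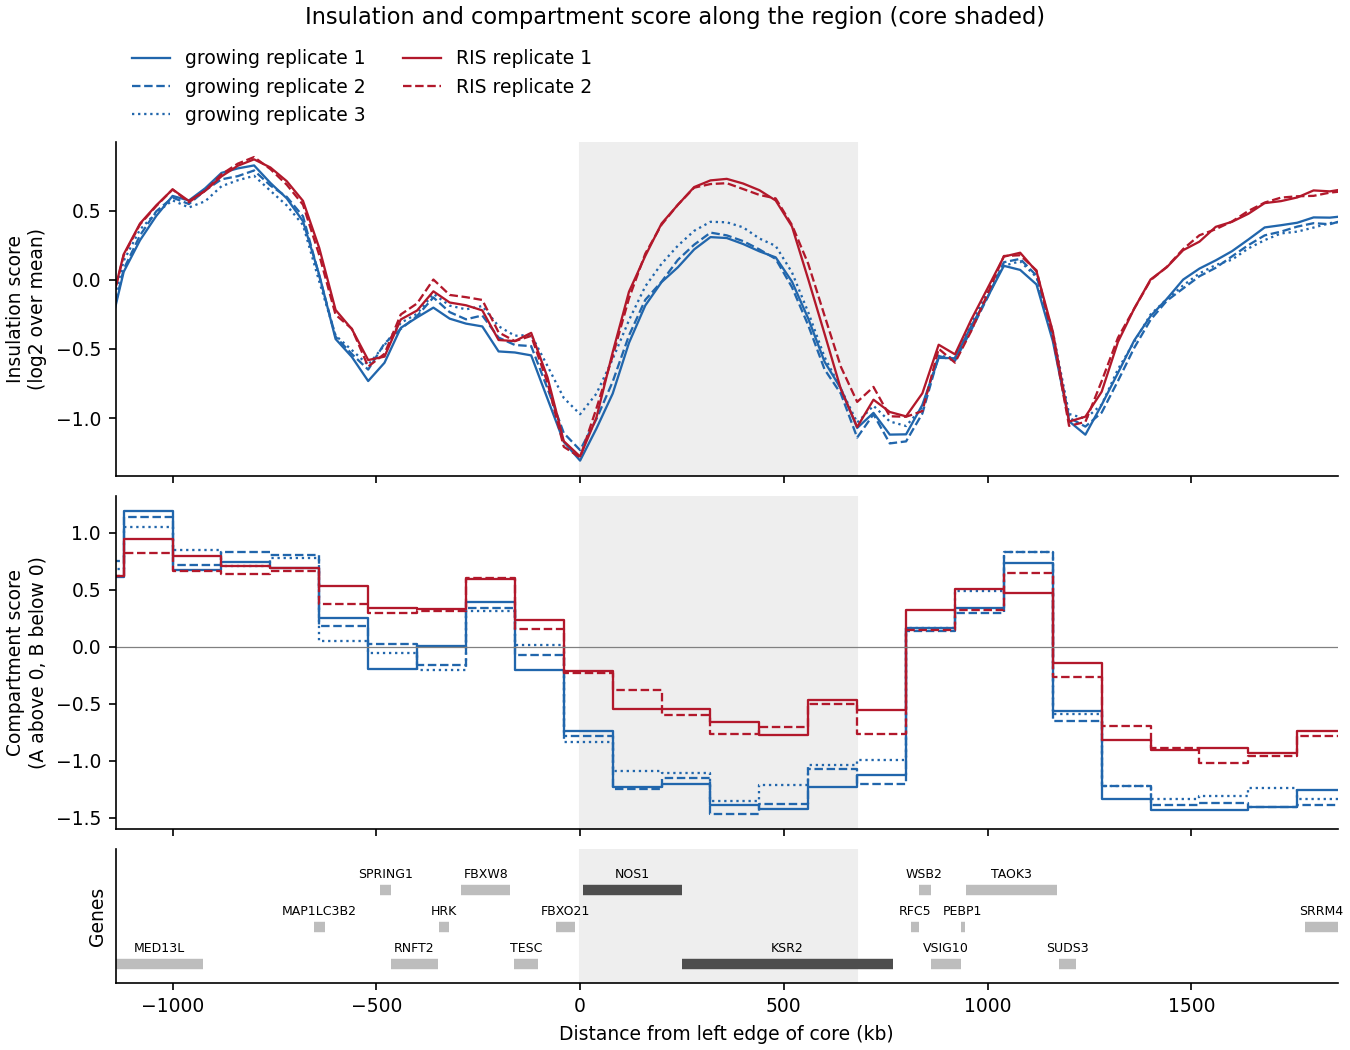
Insulation score (top, log2 over the mean of the chromosome), compartment score (middle, A above 0 and B below 0) and protein-coding genes (bottom) against the distance from the left edge of the core in kb, with a line for each library and the core shaded. Growing (blue) and RIS (red) libraries share the minimum at 0 kb. Inside the core the means of both scores are higher in RIS cells, as they also are over most of the B block to the right, while the compartment score of the core stays below 0.

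The compartment score of the core, the first component of the distance-corrected contacts of chromosome 12 in bins of 120 kb, was -1.20, -1.18 and -1.10 (growing) against -0.53 and -0.53 (RIS). NOS1 and KSR2 thus lay in the B compartment in both conditions, with a score that was higher by 0.63 in RIS cells. Over 1088 bins of chromosome 12 the median difference was -0.02, and 90% of the bins lay between -0.35 and 0.57. The core was not alone in its surroundings: the 5 bins of 120 kb before the one that spans the left edge had means between -0.12 and 0.35 in growing cells and were all above 0 in RIS cells, and the B block to the right was higher by 0.39 to 0.57.

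Contacts of the core with chromosome 12 beyond 2 Mb were lower in RIS cells with both compartments. Balancing gives every bin the same total contact within a library, so these values are not independent of the higher contact inside the core. The part of balancing in them was not tested. With 1482 bins that were B in all libraries, the log2 mean observed/expected contact of the core was 1.03, 0.97 and 0.82 (growing) against 0.34 and 0.35 (RIS), a difference of -0.60. With 1277 bins that were A in all libraries it was -1.99, -2.02 and -1.81 (growing) against -2.57 and -2.30 (RIS), a difference of -0.50. The contact with A minus that with B was -3.02, -2.98 and -2.63 (growing) against -2.91 and -2.65 (RIS). It differed by 0.09 and overlapped between the conditions, unlike the compartment score. The B bins of chromosome 12 had a median difference of 0.17 with other distant B bins and of -0.36 with A bins. Distant contact with B chromatin differed by -0.69 for NOS1 and by -0.56 for KSR2 inside the core, and also by -0.75 and -0.46 for the stretches to the left and right. Before balancing the core held more contacts in RIS cells, at -0.76, -0.86 and -0.77 (log2, relative to the median bin) in growing and -0.71 and -0.63 in RIS cells. The part of this coverage in the differences was not tested. Further, growing replicate 3 and RIS replicate 2 had many more duplicate reads than the others, and both RIS libraries had more dangling ends, unligated fragment ends, by the study's own tables. The difference in contact within the core was 0.51 among libraries with few duplicates and 0.40 among those with many, and the part of the dangling ends cannot be told apart from the conditions.

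Among 1435 genes of at least 200 kb, the contact within the gene body over the 5 libraries was most like that of NOS1 in IQSEC1, SEZ6L and MYO5B, with root mean square differences of 0.05, 0.08 and 0.08. For KSR2, MYO5B and GALNT17 were among the most like, both at 0.04. With all bins that a gene touches, NOS1 stood at -0.28, -0.29 and -0.23 (growing) against 0.07 and 0.06 (RIS), and KSR2 at -0.14, -0.17 and -0.11 and at 0.11 and 0.13. NOS1 and KSR2 differed by 0.33 and 0.26 on this measure. The like genes were also higher in RIS cells, without overlap of the libraries, IQSEC1 by 0.26, SEZ6L by 0.23, MYO5B by 0.24 and GALNT17 by 0.20. These genes were picked by that likeness, so their values are a description. The median gene of this length stood at 0.24 in growing cells with a median difference of 0.03.

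Genes that work with NOS1 and KSR2 were listed by their function and their contacts tested, with earlier results of these data known, so the p-values below are not independent evidence. The windows of NOS1 and KSR2 themselves differed by 0.23 and 0.35, as a description, both RIS libraries being above all growing libraries in each and in 39.0% of all windows. The measure was the log2 mean observed/expected contact in a window of the gene and 200 kb to either side, fitted with limma over 19932 genes (Benjamini-Hochberg, 5%). Of all windows 19.3% were called higher and 8.03% lower in RIS cells, with a median difference of 0.03. Most window differences, called or not, lay between -0.16 and 0.19. Of the called genes of the lists below, only NOS2 and HRAS lay outside these values. The other called genes thus moved no more than most windows did. Of 18 genes of nitric oxide production and signalling, 2 were higher and 2 lower, with a median difference of 0.03. Of 20 genes of RAS, RAF, MEK and ERK signalling, 2 were higher and 3 lower, with a median difference of 0.03. Of these 20, PEBP1 lies in the region used to choose the domain and its window reaches into KSR2, and it was not among the called genes. The 9 of 38 genes called compare with 27.4% of all windows, read here without a test of the lists. Both counts were lower under some alternatives: without RIS replicate 1, 695 windows and 1 listed gene were called, and with the replicate block 1801 and 2.

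The largest rise of both lists was that of NOS2, which encodes inducible nitric oxide synthase and is a paralogue of NOS1. Its window stood at -0.15, -0.13 and -0.16 (growing) against 0.18 and 0.10 (RIS). The contact in it rose by 0.29 ± 0.03 (SE; limma, adjusted p = 0.00365) and remained called in 11 of 11 alternatives. KSR1, the paralogue of KSR2, lies 130 kb from NOS2 on chromosome 17, so that the windows of these 2 genes share bins and are not independent. KSR1 rose by 0.10 ± 0.02 (adjusted p = 0.0310), from 0.30, 0.28 and 0.29 (growing) to 0.38 and 0.40 (RIS), and was called in 4 of 11 alternatives. ARG2, an arginase that competes for the arginine used by nitric oxide synthases, rose by 0.10 ± 0.02 (adjusted p = 0.0296) and was called in 4 of 11 alternatives. Windows of GUCY1B1, a subunit of the nitric oxide receptor guanylate cyclase, and of PRKG2, a kinase activated by cyclic GMP, fell, with log2 differences of -0.13 ± 0.03 (adjusted p = 0.0161) and -0.11 ± 0.03 (adjusted p = 0.0442), and were called in 5 and 4 of 11.

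In the RAS, RAF, MEK and ERK list DUSP6, a phosphatase of ERK, rose by 0.09 ± 0.02 (adjusted p = 0.0438) and was called in 1 of 11 alternatives. The 3 lower windows were those of HRAS, at -0.26 ± 0.07 (adjusted p = 0.0317), CNKSR2, a scaffold of the same route, at -0.14 ± 0.03 (adjusted p = 0.0195), and NRAS, at -0.11 ± 0.02 (adjusted p = 0.0217). HRAS is the gene of which the cells carry an added copy, and its window stood at 0.65, 0.54 and 0.41 (growing) against 0.29 and 0.27 (RIS), with a difference of 0.020 on recovered contacts. The direction turned with a window of 400 kb to either side for GUCY1B1, to 0.0048, for NRAS, to 0.061, and for DUSP6, to -0.00073. HRAS was called in 5 of 10 alternatives, CNKSR2 in 7 of 11 and NRAS in 3 of 11.

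**Figure D5:**
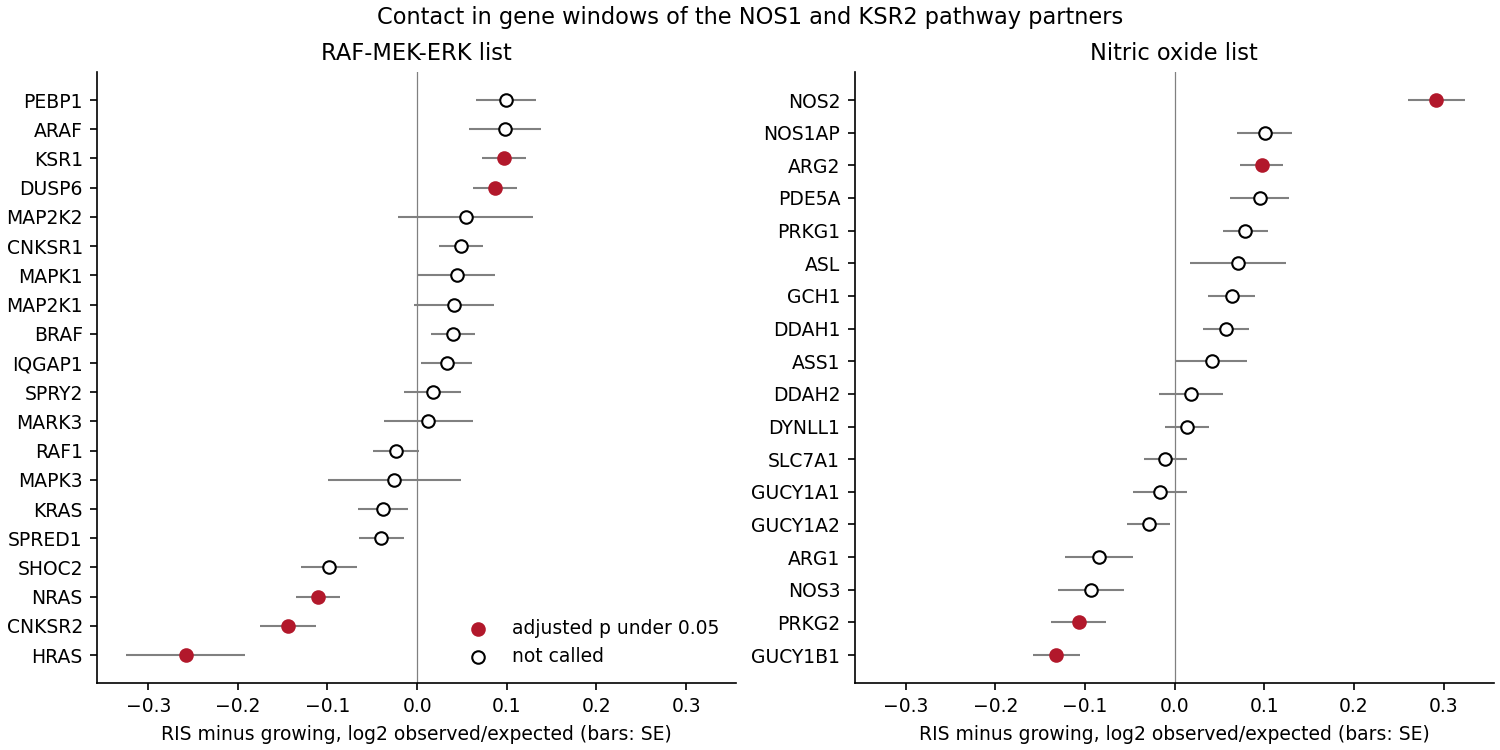
Difference between RIS and growing cells in the contact of gene windows (log2 observed/expected, bars are the SE of the limma fit) for 20 genes of RAS, RAF, MEK and ERK signalling and 18 genes of nitric oxide production and signalling. Filled points are the 9 genes with an adjusted p under 0.05, of which NOS2 at 0.29 stands highest and HRAS at -0.26 lowest.

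The deposited capture Hi-C libraries (2 growing and 2 RIS) listed 0 pairs with a bin of the region, so they give no measurement of NOS1 or KSR2.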

How the data were processed

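Per the labels and the study's methods, the authors checked reads with FastQC, mapped them on hg19 with HiC-Pro, discarded artefactual pairs with HiC-Pro and diffHic and duplicates with samtools, and counted and ICE-balanced each library in bins of 40 kb. The deposited signal is therefore a balanced contact per pair of bins, with a total of 200000000 in each library. When the bias of each bin was divided out, 100% of the values checked came back as whole contacts (within 0.05 for small counts). These gave depths of 154318992, 175410467 and 180775314 contacts (growing) and 109967509 and 150689993 (RIS). The bin coordinates deposited (unit other, base positions) matched GRCh37 in the length of 23 chromosomes.

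The members and gene lists were chosen with earlier results of these data known. Named genes are NOS1, KSR2, protein-coding genes of the region, called pathway genes and the 3 most like each member in the contact of gene bodies of at least 200 kb. A single one of these genes is not reported here. Older pathway symbols were updated through RefSeq, and all 38 matched.

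Expected contacts were means per distance over 23 chromosomes. Borders were local minima of the insulation score (13 bins to either side, prominence at least 0.1). The sign of the compartment component followed gene density. Pairs up to 2 Mb apart with a mean scaled value of at least 5 were tested with limma 3.58.1 in R 4.3.3 on log2(value + 0.5) after loess (span 0.3, 4 iterations). In data simulated for the bin pairs, 200 of 20000 pairs were changed 2-fold, of which the fit to log2 values recovered 0 and voom 105. These simulated pairs held counting noise alone and were adjusted over 20000 pairs, fewer than were tested in the data. For the gene windows limma found 200 of 200 windows moved by 0.5 on the log2 scale among 19932, with the same noise in every window. The largest change of a called pathway gene was 0.29, so recovery of changes of that size was not simulated. Other tools were Python 3.11.15, numpy 2.4.6, scipy 1.17.1 and pandas 2.3.3. Alternatives covered the expectation, recovered contacts, averaging, bin and window sizes, blocks and each library left out.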

Additional observations from a re-analysis of the deposited data

How the results depend on the processing

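With expectations from chromosome 12 alone the differences between RIS and growing cells were 0.45 for the core and -0.0010 for the core with the right stretch, and with the core widened or narrowed by 1 bin that of the core was 0.45 and 0.44. With insulation windows of 5 and 25 bins they were -0.08 and -0.07 at the left edge and 0.10 and 0.02 at the right edge. On recovered contacts they were 0.65 for the core, 0.51 for NOS1, 0.45 for KSR2, 0.72 between the genes, 0.13 for the core with the right stretch, and 0.081 and 0.26 for the insulation score at the left and right edge. With the mean of log2 (observed/expected + 0.1) they were 0.35, 0.24, 0.23, 0.44 and, for the right stretch, -0.094. The compartment difference was 0.69 in bins of 80 kb and 0.50 in bins of 200 kb. Leaving out each library in turn gave 0.45 to 0.50 for the core, 0.27 to 0.30 for NOS1, 0.24 to 0.28 for KSR2, 0.51 to 0.57 between the genes and 0.61 to 0.66 for the compartment score. It gave -0.14 to 0.08 for the left stretch, 0.01 to 0.05 for the right stretch, -0.18 to -0.01 for the left edge and 0.02 to 0.20 for the right edge, so the left stretch has no settled direction. The right stretch and the left edge have none either, as their sign turned with the averaging or expectation and on recovered contacts.

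The 1205 bin pairs called over the genome became 24357 with voom, 459 with a pseudocount of 1, 189 and 3326 with a minimum of 10 and 2, and 0 with a replicate block, with a block for duplicates and without any library in turn. In the core voom called 34 pairs, and every other setting, each library left out included (0 to 0), called 0. The 5452 gene windows called became 10321 on recovered contacts, 1801 with the replicate block and 695 to 4467 with a library left out, with 695 without RIS replicate 1, 2434 without RIS replicate 2 and 2468 without growing replicate 1. The 9 pathway genes called became 14 and 2 with windows extended by 400 and 120 kb, 16 on recovered contacts, 2 with the replicate block, 14 with the block for duplicates and 1 to 6 with a library left out (1 without growing replicate 1, 3 without growing replicate 2, 1 without RIS replicate 1 and 3 without RIS replicate 2). The direction turned for GUCY1B1 (0.0048), NRAS (0.061) and DUSP6 (-0.00073) with 400 kb and for HRAS (0.020) on recovered contacts. The cause was not tested. Whether growing and RIS libraries of the same replicate number were paired is not known. Their deviations over bin pairs correlated at 0.0023 for number 1 and -0.0019 for number 2. With 2 RIS libraries the deviations of one mirror those of the other by construction, so these values cannot settle the pairing. Where 1 RIS library was left out, limma takes the other to vary like the growing libraries.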
